A study of Homo sapiens with 28 samples.

Results

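The 35 genes described here are interferon-stimulated genes, a list of genes taken by name from the well-known set that type I interferon switches on. The rule that picks them goes by symbol and uses no measured value, although the list was drawn up with earlier results of these data known. All 35 were present among the 25807 gene symbols of the RNA table and among the 19050 gene names of the CRISPR screen table. In the RNA data 23 of the 35 had enough reads to be tested, and in the screen all 35 were tested through 203 guides. The list was ordered by role into cytosolic RNA sensors (IFIH1, DDX58, DHX58, DDX60), oligoadenylate synthetases (OAS1, OAS2, OAS3, OASL), the IFIT family (IFIT1, IFIT2, IFIT3, IFIT5) and the ISG15 system (ISG15, HERC5, HERC6, USP18). The other groups were restriction factors and enzymes (MX1, MX2, RSAD2, CMPK2, BST2, ISG20, SAMD9, SAMD9L), transcription factors (STAT2, IRF1, IRF7, IRF9) and further induced genes (IFI6, IFI27, IFI35, IFI44, IFI44L, XAF1, PARP9).

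Type I interferon binds the receptor chains IFNAR1 and IFNAR2, and the kinases JAK1 and TYK2 then phosphorylate STAT proteins, STAT2 among them. Together with IRF9, STAT2 is part of the complex ISGF3, which binds an element in the promoters of the target genes. IRF1 and other members of its family bind the same kind of element, so some of these genes can also be induced without interferon, for example downstream of NF-kB or of DNA damage.

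The study used U2OS, a human osteosarcoma cell line, and etoposide, a drug that traps topoisomerase II on DNA and so causes breaks. For RNA, U2OS cells with wild-type p53 were grown for 8 h in medium that other U2OS cells had conditioned. The donors were p53 knockout (KO) cells given 31.6 µM etoposide, p53 wild-type (WT) donors given 31.6 µM etoposide, KO donors without etoposide, and WT donors without etoposide, and the fifth group was the recipient cells at the start (0 h, T0). The screen followed genome-wide guide pools in KO and WT cells after 96 h in 5 µM etoposide, after 96 h without etoposide, and at T0; the labels call the cells without etoposide untreated in the title and DMSO-treated in the treatment text, and they are called DMSO cells here. The RNA media are called KO etoposide, WT etoposide, KO DMSO and WT DMSO medium after their donors; the labels name the donors without etoposide as untreated in one field and as DMSO-treated in another. Every RNA library thus comes from wild-type p53 cells, and KO or WT describes the donor of the medium only. The labels do not say whether etoposide was removed from the media, nor whether the KO line was a single clone.

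Each of the 5 RNA groups had 2 libraries of 16.8 to 20.3 M counts, and each of the 6 screen groups had 3 libraries of 30.4 to 48.2 M counts, with a median guide count of 246 to 395. Whether the libraries within a group were separate cultures is not stated, and p-values therefore measure only the spread among these libraries. The KO DMSO medium libraries A and B differed more from each other (chi-square per degree of freedom of 12.8) than those of the other RNA groups (1.9 to 5.09), and results that turn on either are given without it. Of the bone lineage markers, COL1A1 had 1652434 counts over the 10 libraries, VIM 435772, SPARC 392554, ALPL 8448, RUNX2 6279, TNFRSF11B 1718 and SPP1 610, while COL1A2 had 145, BGLAP 29, SP7 11 and IBSP 2. The epithelial keratins KRT8 and KRT18 had 162103 and 104998 counts, CDH1 932 and EPCAM 354. Etoposide media raised CDKN1A, the p53 target encoding p21, by 2.35 ± 0.09 (KO donors) and 2.01 ± 0.09 (WT donors) on the log2 scale (SE, adjusted p = 1.01e-12 and 1.16e-11). This transcript alone does not measure p53 activity in the recipients, whose part in the results below was not tested.

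The promoters below were printed because their genes gave the smallest p-values in the etoposide media comparisons among members that hold the searched element. They are the 200 bases before the RefSeq transcript start on build GRCh38.p14, read 5′ to 3′ on the strand of the gene. IFIT1 lies at chr10:89392423-89392622 (plus strand), OAS3 at chr12:112938274-112938473 (plus strand), SAMD9 at chr7:93117980-93118179 (minus strand) and IFIT3 at chr10:89327797-89327996 (plus strand, the first of 2 starts listed). Capitals mark matches to GAAANNGAAA, the core of the interferon-stimulated response element, on either strand (TTTCNNTTTC when reversed), and in OAS3 also a match to the kappa B motif GGGANTTTCC.
IFIT1: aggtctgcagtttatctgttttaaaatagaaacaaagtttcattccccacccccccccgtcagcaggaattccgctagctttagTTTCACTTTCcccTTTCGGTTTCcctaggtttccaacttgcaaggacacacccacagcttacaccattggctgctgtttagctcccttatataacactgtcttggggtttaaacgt
OAS3: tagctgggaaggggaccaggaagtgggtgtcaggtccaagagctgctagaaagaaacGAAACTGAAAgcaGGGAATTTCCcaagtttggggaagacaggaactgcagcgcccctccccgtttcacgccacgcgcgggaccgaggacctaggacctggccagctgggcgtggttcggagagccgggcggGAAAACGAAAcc
SAMD9: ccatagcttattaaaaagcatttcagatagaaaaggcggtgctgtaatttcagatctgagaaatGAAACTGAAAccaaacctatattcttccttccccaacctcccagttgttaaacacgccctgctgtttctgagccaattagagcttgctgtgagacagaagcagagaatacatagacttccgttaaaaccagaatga
IFIT3: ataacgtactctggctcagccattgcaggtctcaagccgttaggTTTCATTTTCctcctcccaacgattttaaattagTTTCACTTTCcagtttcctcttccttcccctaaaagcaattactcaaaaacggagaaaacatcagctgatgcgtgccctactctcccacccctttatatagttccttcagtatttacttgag

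RefSeq promoter sequences (300 bases each) were matched for 28 of the 35 members, DDX58 under its newer symbol RIGI, in 38 entries. GAAANNGAAA occurred in 22 of those 38 entries (57.9%) and in 1255 of all 35116 promoters (3.57%). Counted by gene, 18 of 28 members (64.3%) held it in at least 1 entry, against 1195 of 27305 genes (4.38%). IFIT1 carried the element 116 and 103 bases before its start, both in reverse, IFIT3 carried it in each of its 2 entries, and OAS3 carried it 143 and 12 bases before its start. The searched kappa B letters occurred in 3 of 38 member entries (7.89%), those of IFIH1, DDX58 and OAS3, and in 196 of all promoters (0.558%). The searched letters of either motif were not in the windows of IRF1, SAMD9L, STAT2 or IRF9, and PARP9 held the interferon element 41 bases before its start. Other spellings of either motif were not searched, so a window without a match may still hold such a site. A match describes the letters of the sequence only.

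Transcript levels ran from the upper part of all symbols down to a few counts in all libraries together. Per kilobase of transcript and averaged over the 10 libraries, the highest members were IRF9 at 10.4 CPM per kb, STAT2 at 10.3, IFI6 at 9.73 and ISG15 at 8.26, which placed them at percentiles 78, 77.7, 77 and 74.8 of all symbols. In all, 19 members averaged at least 1 CPM. The 12 untested members (OAS2, IFIT2, HERC5, MX2, RSAD2, BST2, IRF7, IFI27, IFI35, IFI44, IFI44L, XAF1) never exceeded 12 counts in a library. HERC5, an ISG15 ligase, had 1 count in all 10 libraries together, the apoptosis factor XAF1 had 2 and the antiviral enzyme RSAD2 had 3. IFI44 reached 8 and 12 counts at T0 and at most 4 elsewhere, and IFIT2 reached 7 and 9 counts at T0 and at most 6 elsewhere. The filter on low counts left the 12 untested members out of the full fit, so their differences between the media were not tested there. Counts this low carry wide counting error. The heat map of transcripts by library shows that the tested members did not follow a single pattern.

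**Figure D1:**
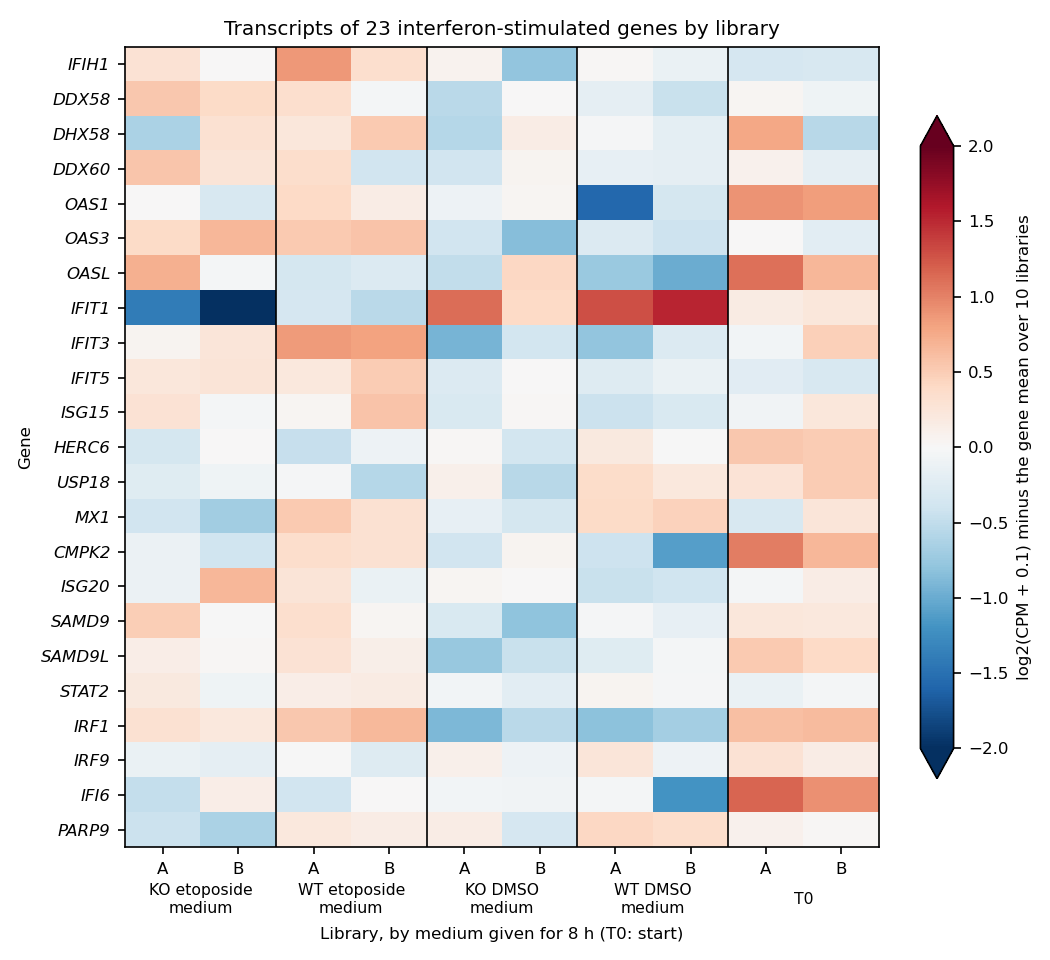
Deviation of each of the 23 tested members (rows) from its own mean over 10 libraries, as log2(CPM + 0.1), with red for higher and blue for lower; columns are libraries A and B of each medium and of T0. IFIT1 is lowest in the etoposide media and highest in WT DMSO medium, whereas IRF1, OAS3 and IFIT3 are lowest in the DMSO media, and IFI6, OASL, OAS1 and CMPK2 are highest at T0.

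Etoposide medium was compared with DMSO medium from donors of the same genotype. With medium from KO donors, 8 of 23 members changed, namely IFIT1 and PARP9 lower and IRF1, OAS3, SAMD9, SAMD9L, DDX58 and IFIT5 higher. With medium from WT donors, 7 of 23 changed, namely IFIT1 lower and IRF1, OAS3, IFIT3, IFIT5, ISG15 and DDX58 higher. For KO donors, 26.1% of tested members rose and 8.7% fell, beside 18.8% and 18.4% of all 15391 tested symbols. For WT donors, 26.1% rose and 4.35% fell, beside 16.1% and 18.5% of all symbols. The member median was 0.28 (KO donors) and 0.47 (WT donors) on the log2 scale, beside −0.01 and 0.01 over all symbols. Calls are edgeR quasi-likelihood tests at a Benjamini-Hochberg adjusted p under 0.05, and the errors of log2 fold changes are SEs. RNA from a whole culture cannot tell fewer cells with a transcript from less transcript per cell.

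**Figure D2:**
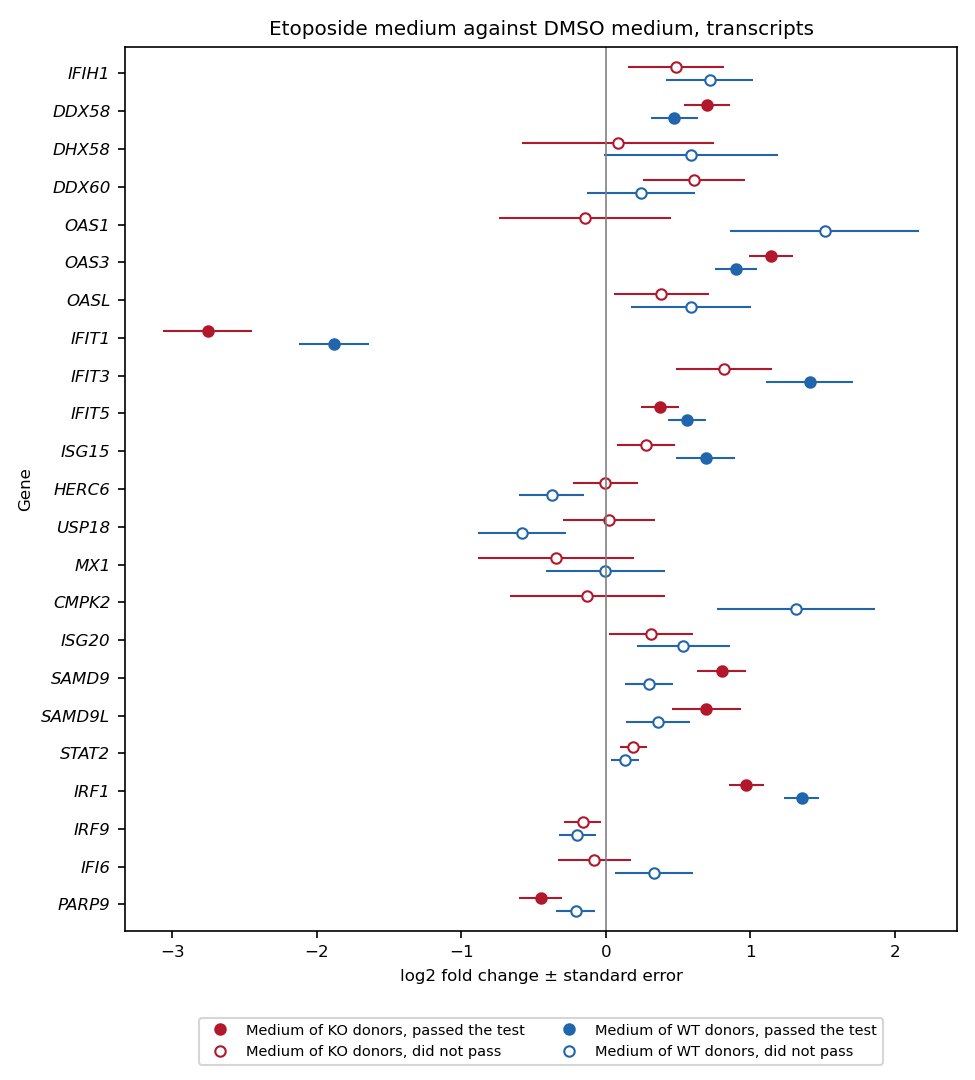
Log2 fold change of etoposide medium over DMSO medium with its standard error for the 23 tested members, in red for medium of KO donors and in blue for medium of WT donors; filled points passed the test. IFIT1 lies far to the left in both comparisons (−2.76 and −1.88), while IRF1 and OAS3 lie to the right in both.

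Among the RNA sensors, DDX58, which encodes RIG-I, a receptor for triphosphorylated RNA, was the most abundant. It had 18.4 and 16.5 CPM in KO etoposide medium and 15.9 and 12.3 CPM in WT etoposide medium, against 8.68 and 12.8 CPM in KO DMSO medium and 11.1 and 9.31 CPM in WT DMSO medium. Both pairs of etoposide libraries lay above their own DMSO pair. It rose by 0.70 ± 0.16 with KO donors (adjusted p = 0.00179) and by 0.47 ± 0.16 with WT donors (adjusted p = 0.0315). Without KO DMSO library A the value with KO donors was 0.43 and without KO DMSO library B it was 1.01, and it passed in both settings. The call with WT donors was lost with DESeq2 (adjusted p = 0.0511), without WT DMSO library B (0.238) and without WT etoposide library A (0.342, log2 fold change 0.27). IFIH1, which encodes MDA5, a receptor for long double-stranded RNA, had 1.85 and 1.51 CPM in KO etoposide medium and 2.81 and 1.92 CPM in WT etoposide medium, against 1.58 and 0.82 CPM in KO DMSO medium and 1.53 and 1.37 CPM in WT DMSO medium. Its differences of 0.49 ± 0.33 and 0.72 ± 0.30 did not pass the test (adjusted p = 0.266 and 0.0717). DHX58, a regulator of these receptors, and the helicase DDX60 averaged 0.39 and 1.01 CPM and did not pass the test in any comparison.

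The oligoadenylate synthetases make short oligoadenylates in response to double-stranded RNA. OAS3 had 14.4 and 17.5 CPM in KO etoposide medium and 16 and 16.5 CPM in WT etoposide medium, against 8.41 and 6.07 CPM in KO DMSO medium and 9.08 and 8.3 CPM in WT DMSO medium. No etoposide library overlapped a DMSO library. It rose by 1.14 ± 0.15 with KO donors (adjusted p = 8.1e-06) and by 0.90 ± 0.15 with WT donors (adjusted p = 9.42e-05), 2.21-fold and 1.87-fold. OAS1 had 0.35 and 0.26 CPM in KO etoposide medium and 0.49 and 0.4 CPM in WT etoposide medium, against 0.32 and 0.36 CPM in KO DMSO medium and 0.05 and 0.25 CPM in WT DMSO medium, where library A held a single count. It did not pass the test with either donor (adjusted p = 0.0814 with WT donors). OASL, a related protein without synthetase activity that binds RIG-I, had 2.7 and 1.56 CPM in KO etoposide medium and 1.23 and 1.3 CPM in WT etoposide medium, against 1.1 and 2.16 CPM in KO DMSO medium and 0.92 and 0.76 CPM in WT DMSO medium. Its KO pairs overlapped and neither comparison passed.

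The IFIT proteins bind foreign or unmodified RNA, and the 4 genes lie together on chromosome 10. IFIT1 had 1.2 and 0.52 CPM in KO etoposide medium and 2.61 and 2.26 CPM in WT etoposide medium, against 7.36 and 4.42 CPM in KO DMSO medium and 8.31 and 9.76 CPM in WT DMSO medium. The groups did not overlap, and T0 lay between them at 3.75 and 3.92 CPM. IFIT1 fell by 2.76 ± 0.31 on the log2 scale with KO donors (adjusted p = 1.07e-06) and by 1.88 ± 0.24 with WT donors (adjusted p = 6.37e-06), to 0.15 and 0.27 of the DMSO level. IFIT3 went the other way from IFIT1, with 1.55 and 1.77 CPM in KO etoposide medium and 2.76 and 2.66 CPM in WT etoposide medium, against 0.74 and 1.13 CPM in KO DMSO medium and 0.82 and 1.21 CPM in WT DMSO medium. It rose by 1.41 ± 0.30 with WT donors (adjusted p = 0.00119), while its 0.82 ± 0.33 with KO donors missed the threshold (adjusted p = 0.0602). IFIT5 had 15 and 15.3 CPM in KO etoposide medium and 14.7 and 18.2 CPM in WT etoposide medium, against 10.5 and 12.9 CPM in KO DMSO medium and 10.6 and 11.6 CPM in WT DMSO medium.

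IFIT5 thus lay higher in every etoposide library than in every DMSO library, and it rose by 0.37 ± 0.13 with KO donors (adjusted p = 0.0322) and by 0.56 ± 0.13 with WT donors (adjusted p = 0.00261). With KO donors the IFIT5 call was lost with DESeq2 (adjusted p = 0.0798) and with a fit of only the libraries compared (0.0732). It was also lost without KO DMSO library A (log2 fold change 0.21) and without KO etoposide library A (log2 fold change 0.38) or B (0.35). With WT donors the IFIT5 call was lost without WT etoposide library B (log2 fold change 0.40). The strand setting of the counting is not given in the sources used here. The span of the gene LIPA overlaps those of the IFIT genes in RefSeq, and whether their exons overlap was not examined. Reads from a stretch that both share could not be told apart without strand. Reads shared among IFIT paralogs may have been split between them. The limit from overlap holds also for CMPK2 and RSAD2, and the limit from shared reads for the OAS and MX paralogs.

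**Figure D3:**
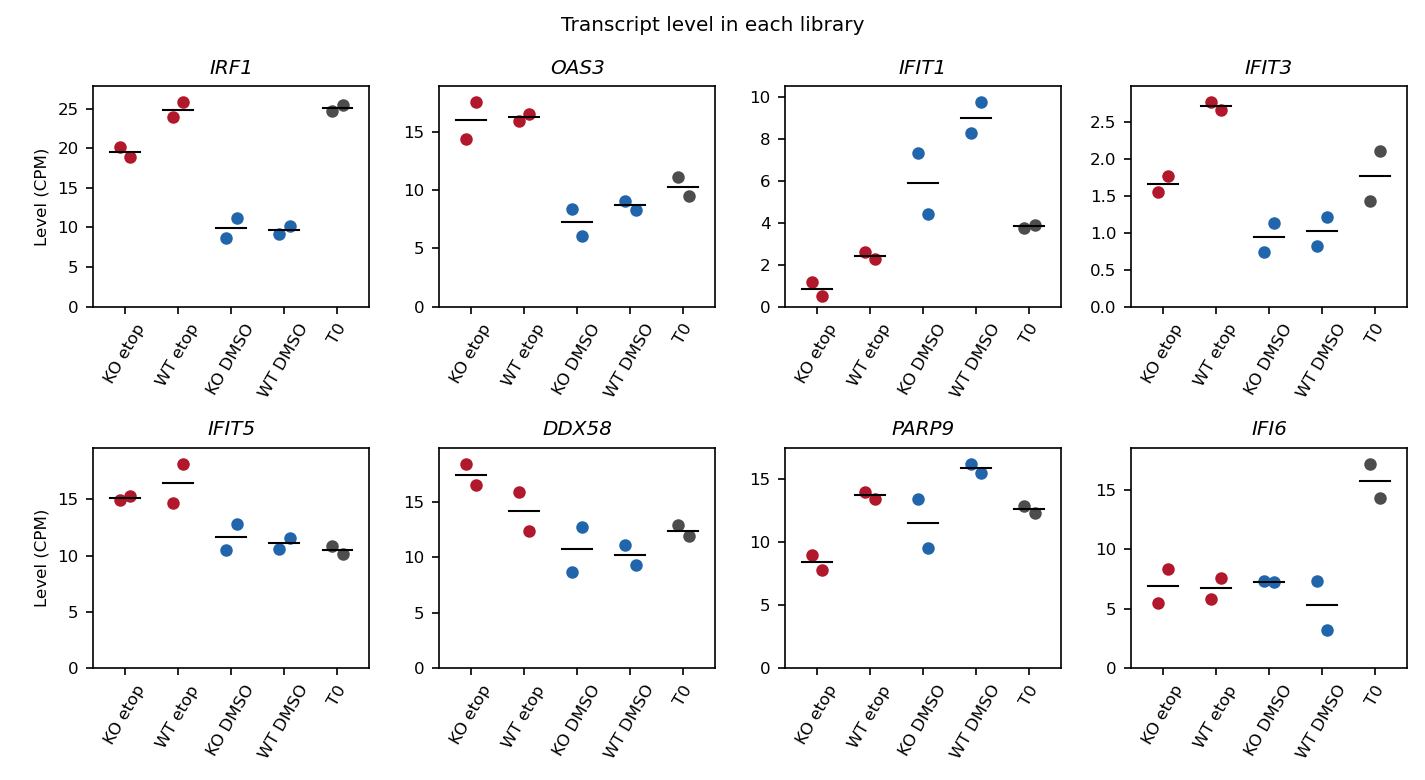
Transcript level in CPM of 8 members in each library (points, libraries A and B) with the group mean (line), by medium and at T0, on axes that start at 0. IFIT1 lies below its T0 level in the etoposide media, at 0.52 to 2.61 CPM, and lies above it in the DMSO media, whereas IRF1 has 24.8 and 25.5 CPM at T0 and 8.73 to 11.2 CPM in the DMSO media.

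In the ISG15 system, ISG15, a ubiquitin-like modifier, had 6.64 and 5.25 CPM in KO etoposide medium and 5.52 and 8.04 CPM in WT etoposide medium, against 4.36 and 5.45 CPM in KO DMSO medium and 3.98 and 4.35 CPM in WT DMSO medium. The KO pairs overlapped and the WT pairs did not. It rose by 0.69 ± 0.20 with WT donors (adjusted p = 0.0128), a call that was lost without WT DMSO library A (0.0986) and without WT etoposide library B (log2 fold change 0.40, adjusted p = 0.224). With KO donors its 0.28 ± 0.20 did not pass (adjusted p = 0.3). The ligase HERC6 had 2.5 and 3.23 CPM in KO etoposide medium and 2.32 and 3 CPM in WT etoposide medium, against 3.26 and 2.47 CPM in KO DMSO medium and 3.67 and 3.19 CPM in WT DMSO medium, and T0 was highest at 4.7 and 4.62 CPM. USP18, the protease that removes ISG15 and restrains the receptor, averaged 1.6 CPM over the libraries. Neither HERC6 nor USP18 passed the test, with −0.38 ± 0.22 for HERC6 and −0.58 ± 0.30 for USP18 with WT donors.

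Among restriction factors, SAMD9, which restricts poxviruses, had 18.8 and 13.3 CPM in KO etoposide medium and 16.8 and 13.8 CPM in WT etoposide medium, against 10.8 and 7.61 CPM in KO DMSO medium and 13.1 and 11.8 CPM in WT DMSO medium. The etoposide libraries lay above their own DMSO libraries with both donors. SAMD9 rose by 0.80 ± 0.17 with KO donors (adjusted p = 0.000969), or 0.52 without KO etoposide library A (adjusted p = 0.0502), and its 0.30 ± 0.16 with WT donors did not pass (adjusted p = 0.171). Its paralog SAMD9L had 2.8 and 2.6 CPM in KO etoposide medium and 3.15 and 2.77 CPM in WT etoposide medium, against 1.47 and 1.85 CPM in KO DMSO medium and 2.14 and 2.48 CPM in WT DMSO medium. SAMD9L rose by 0.70 ± 0.24 with KO donors (adjusted p = 0.0267). That call was lost with DESeq2 (0.11) and with a fit of only the libraries compared (0.0698). It was also lost without any 1 of the 4 libraries except KO DMSO library B. Without KO DMSO library A the SAMD9L value was 0.52. CMPK2, a mitochondrial nucleotide kinase, had 0.4 and 0.31 CPM in KO etoposide medium and 0.59 and 0.57 CPM in WT etoposide medium, against 0.32 and 0.46 CPM in KO DMSO medium and 0.31 and 0.15 CPM in WT DMSO medium. Its 1.32 ± 0.55 with WT donors missed the threshold (adjusted p = 0.0699). MX1, a GTPase that blocks viral nucleocapsids, and the exonuclease ISG20 averaged 0.51 and 1.67 CPM and did not pass the test with either donor.

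Of the transcription factors, IRF1 moved most. It had 20.2 and 18.9 CPM in KO etoposide medium and 23.9 and 25.8 CPM in WT etoposide medium, against 8.73 and 11.2 CPM in KO DMSO medium and 9.23 and 10.2 CPM in WT DMSO medium. All 4 etoposide libraries were well above all 4 DMSO libraries. IRF1 rose by 0.97 ± 0.12 with KO donors (adjusted p = 4.01e-06) and by 1.36 ± 0.12 with WT donors (adjusted p = 5.55e-08), 1.96-fold and 2.56-fold. STAT2 and IRF9 did not pass the test with either donor. STAT2 had 53.2 and 43.9 CPM in KO etoposide medium and 51 and 52.2 CPM in WT etoposide medium, against 44.9 and 40.2 CPM in KO DMSO medium and 48.4 and 45.6 CPM in WT DMSO medium. IRF9 had 15.8 and 15.3 CPM in KO etoposide medium and 17.4 and 14.6 CPM in WT etoposide medium, against 18.7 and 16.2 CPM in KO DMSO medium and 20.5 and 16.3 CPM in WT DMSO medium. Their log2 fold changes lay between −0.20 and 0.19.

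Among the further induced genes, PARP9, an ADP-ribosyltransferase partner of the ligase DTX3L, had 8.99 and 7.75 CPM in KO etoposide medium and 13.9 and 13.4 CPM in WT etoposide medium, against 13.4 and 9.52 CPM in KO DMSO medium and 16.2 and 15.5 CPM in WT DMSO medium. Each etoposide pair lay below its own DMSO pair. PARP9 fell by 0.45 ± 0.15 with KO donors (adjusted p = 0.023), a call that was lost with a fit of only the libraries compared (0.0887). It was also lost without KO DMSO library A, when PARP9 stood at −0.21, and without KO etoposide library B, when it stood at −0.35. DTX3L, whose gene span overlaps that of PARP9 in RefSeq, rose by 0.39 ± 0.11 with KO donors and by 0.54 ± 0.10 with WT donors (adjusted p = 0.00769 and 0.000534). Only reads from a stretch that both genes share could be confused without strand, and the extent of such stretches was not examined. IFI6, a small mitochondrial protein, had 5.44 and 8.32 CPM in KO etoposide medium and 5.81 and 7.58 CPM in WT etoposide medium, against 7.31 and 7.2 CPM in KO DMSO medium and 7.34 and 3.24 CPM in WT DMSO medium. These groups overlapped and did not pass.

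KO etoposide medium was then compared with WT etoposide medium to ask whether donor p53 changed what the recipients expressed. In all, 3 of 23 members were lower (13%) and none was higher, beside 5.57% lower and 8.5% higher over all symbols. PARP9 was lower by 0.71 ± 0.15 (log2 fold change −0.71, adjusted p = 0.00351), IFIT1 stood at −1.49 ± 0.36 (adjusted p = 0.0102) and IRF1 at −0.34 ± 0.11 (adjusted p = 0.0454). For each, both KO etoposide libraries lay below both WT etoposide libraries. The calls rest on few libraries. Without KO etoposide library B no member passed (adjusted p of 0.0561 for PARP9, 0.132 for IFIT1 and 0.227 for IRF1), without WT etoposide library A only PARP9 did (0.0809 for IFIT1, 0.0967 for IRF1), and IRF1 was lost without any 1 of the 4 libraries (0.126 without KO etoposide library A, 0.242 without WT etoposide library B), with DESeq2 (0.104) and with DESeq2 size factors in edgeR (0.0516). IFIT3 (−0.71 ± 0.27), MX1 (−1.15 ± 0.48) and OASL (0.75 ± 0.35) missed the threshold (adjusted p = 0.0938, 0.122 and 0.158). The authors' deposited table of KO against WT media lists 18 of the members, with IFIT1 at −1.50 (their adjusted p = 0.00202), PARP9 at −0.71 (0.00203) and IRF1 at −0.35 (0.0944), and its values for the members were within 0.00991 of the etoposide media comparison here.

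KO DMSO medium against WT DMSO medium gave no member past the threshold with edgeR, where 1.56% of all symbols passed, and 4 members had an unadjusted p under 0.05. With DESeq2 none passed either. The 4 were PARP9 (−0.47 ± 0.14, adjusted p = 0.0775), IFIT1 (−0.62 ± 0.21, 0.112), SAMD9 (−0.44 ± 0.17, 0.171) and OASL (0.96 ± 0.39, 0.181). When KO DMSO library A was left out all 4 passed (adjusted p = 0.000513, 0.000772, 0.00623 and 0.00945), and without the filter on low counts PARP9, IFIT1 and SAMD9 did (0.0183, 0.0119 and 0.0445). PARP9 and IFIT1, named here for their small p-values, thus had negative values with KO donors in both media pairs, and OASL was positive in both. IRF1 stood at −0.34 in the etoposide pair and 0.04 in the DMSO pair, and SAMD9 at 0.07 and −0.44. The pairs share no library, but both set KO donors against WT donors. Whether the etoposide effect itself depended on donor p53 was tested as the difference of the etoposide effects, KO minus WT donors. No member passed with edgeR or DESeq2 (2.12% of all symbols did with edgeR), and 2 had an unadjusted p under 0.05, IRF1 at −0.38 ± 0.17 (adjusted p = 0.233) and SAMD9 at 0.50 ± 0.24 (0.257). Next came IFIT1 at −0.87 ± 0.42 (0.271) and CMPK2 at −1.44 ± 0.77 (0.327). The result depends on the KO DMSO libraries, since IRF1 and SAMD9 passed without library A (0.0266 and 0.022) and IFIT1 passed without library B (0.0372). The larger fall of IFIT1 with KO donors and the larger rise of IRF1 with WT donors were therefore not shown to differ with all libraries in.

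Each medium was also compared with the recipient cells at T0. T0 was 0 h, the media were given for 8 h, and no group spent 8 h in unconditioned medium. Time, the change of medium and its conditioning therefore cannot be told apart in the comparisons with T0. These comparisons share the T0 libraries with each other and the media libraries with the comparisons above. With KO DMSO medium against T0, 1 member was higher and 8 were lower (18.1% and 18.7% of all symbols), and with WT DMSO medium 1 was higher and 6 were lower (17.8% and 17.6%). IRF1 had 24.8 and 25.5 CPM at T0, and it fell by 1.33 ± 0.12 in KO DMSO medium (adjusted p = 1.08e-07) and by 1.37 ± 0.12 in WT DMSO medium (6.12e-08). IFI6 had 17.2 and 14.3 CPM at T0, above each of the 8 media libraries, and fell by 1.12 ± 0.23 and by 1.57 ± 0.24 (0.000964 and 5.61e-05). OASL had 3.54 and 2.58 CPM at T0 and fell by 0.90 ± 0.31 and by 1.86 ± 0.35 (0.0304 and 0.000429). IFIT1 was the member that rose, by 0.62 ± 0.24 and by 1.24 ± 0.22 (0.0485 and 0.000285), and the KO DMSO call was lost with DESeq2, without either T0 library and without KO DMSO library A, when it stood at 0.23 (0.488), while without KO DMSO library B it stood at 0.94.

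SAMD9 had 15.6 and 15.4 CPM at T0, SAMD9L 3.7 and 3.39 CPM, IFIT3 1.43 and 2.1 CPM and OAS1 0.74 and 0.7 CPM. The remaining members that fell in KO DMSO medium against T0 were SAMD9L (−1.09 ± 0.23, adjusted p = 0.00104), SAMD9 (−0.75 ± 0.17, 0.00196), HERC6 (−0.70 ± 0.21, 0.0142), OAS3 (−0.51 ± 0.16, 0.0174) and IFIT3 (−0.91 ± 0.33, 0.0385). Those in WT DMSO medium were CMPK2 (−1.91 ± 0.50, 0.0059), OAS1 (−2.19 ± 0.59, 0.00715) and SAMD9L (−0.61 ± 0.21, 0.0316). CMPK2 and OAS1 had 3 to 19 and 1 to 14 counts in a library, and the WT DMSO library A alone held 1 count of OAS1. The calls of HERC6, OAS3, OASL and IFIT3 in KO DMSO medium and of CMPK2, OAS1 and SAMD9L in WT DMSO medium were each lost in at least 1 setting that left out a library. Those that moved by over 1.5 times were OASL in KO DMSO medium (−0.48 without KO DMSO library A, −1.47 without B), OAS3 (−0.30 without KO DMSO library B), IFIT3 (−0.60 without T0 library B) and OAS1 in WT DMSO medium (−3.66 without WT DMSO library B). In KO DMSO medium IFIT3 stood at −0.61 without KO DMSO library A, and HERC6 at −0.52 without KO DMSO library B.

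Etoposide medium against T0 gave 3 members higher and 7 lower with KO donors (22.8% and 23.8% of all symbols) and 3 higher and 4 lower with WT donors (19.2% and 21.8%). OAS3 rose above T0 by 0.63 ± 0.14 and by 0.66 ± 0.14 (adjusted p = 0.00151 and 0.00133), where T0 had 11.1 and 9.51 CPM. IFIT5 rose by 0.53 ± 0.13 and by 0.64 ± 0.13 (0.00324 and 0.000765), where T0 had 10.8 and 10.2 CPM. The third riser was DDX58 with KO donors (0.49 ± 0.16, 0.015) and IFIH1 with WT donors (1.02 ± 0.32, 0.0141), and both calls were lost when a library was left out. IFIT1 fell below T0 by 2.14 ± 0.33 with KO donors (3.84e-05), while its −0.65 ± 0.27 with WT donors did not pass (0.0659). IFI6 fell by 1.20 ± 0.23 and by 1.24 ± 0.24 (0.000368 and 0.000352), HERC6 by 0.71 ± 0.21 and by 0.82 ± 0.22 (0.0103 and 0.00509), and IRF9 by 0.38 ± 0.13 and by 0.34 ± 0.13 (0.0198 and 0.0403).

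IRF1 in WT etoposide medium (23.9 and 25.8 CPM) overlapped its T0 range, and in KO etoposide medium it was lower than T0 by 0.36 ± 0.11 (log2 fold change −0.36, adjusted p = 0.0117; lost without KO etoposide library B, 0.101, and without T0 library B, 0.0784). The higher IRF1 level in etoposide medium than in DMSO medium was thus a level at or under that of the starting cells. OAS3 and IFIT5 differed from IRF1 in this, since their etoposide levels exceeded both the DMSO media and T0. The remaining members lower than T0 were PARP9 (−0.59 ± 0.15, 0.00326) and CMPK2 (−1.29 ± 0.46, 0.0273) with KO donors, and OASL (−1.27 ± 0.33, 0.0045) with WT donors. These calls of PARP9, CMPK2 and OASL, those of HERC6 and IRF9 with both donors, and no call of OAS3, IFIT5 or IFI6, were lost when 1 library was left out. IRF9 with WT donors stood at −0.22 without WT etoposide library B (adjusted p = 0.297).

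The interferon genes themselves were close to silent in the recipients. Of 24 symbols on the ligand list 21 were in the table, and none had enough reads to be tested. IFNB1, IFNG and every interferon alpha symbol in the table except IFNA7 (1 count) had no count in any library, while IFNE had 8 and IFNK 5 counts over the 10 libraries. Summed over the ligand list, KO etoposide medium had 2 to 7 counts a library, WT etoposide medium 1, KO DMSO medium 0 to 3, WT DMSO medium 0 to 1, and T0 0 to 2. Secretion by the donor cells was not measured. Receptor transcripts were present. Of 6 tested receptor genes, 2 rose and none fell with KO donors and 1 rose and 1 fell with WT donors. Over all symbols 18.8% rose and 18.4% fell with KO donors, and 16.1% rose and 18.5% fell with WT donors, so these counts are read as no more than a description. IFNAR1 rose by 0.52 ± 0.08 and by 0.26 ± 0.08 (adjusted p = 3.16e-05 and 0.0146), IFNGR1 rose by 0.29 ± 0.10 with KO donors (0.0258), and IFNLR1, the receptor for interferon lambda, fell by 0.72 ± 0.17 with WT donors (0.00331).

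Of 11 JAK-STAT signalling genes, 3 rose and 3 fell with KO donors and 2 rose and 3 fell with WT donors, beside the shares of all symbols given for the receptors. SOCS3, a feedback inhibitor of cytokine signalling, fell by 1.64 ± 0.12 and by 0.91 ± 0.11 (adjusted p = 3.24e-09 and 4.62e-06). SOCS1 fell by 0.77 ± 0.17 and by 0.997 ± 0.17 (0.00143 and 0.000136) and the SUMO ligase PIAS1 by 0.31 ± 0.09 and by 0.56 ± 0.09 (0.00882 and 5.91e-05). STAT3 rose by 0.30 ± 0.07 and by 0.24 ± 0.07 (0.00168 and 0.0104).

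Of 15 tested genes of nucleic acid sensing, 9 rose and 1 fell with KO donors and 7 rose and 1 fell with WT donors. For this list and the next, 18.8% of all symbols rose and 18.4% fell with KO donors. With WT donors 16.1% of all symbols rose and 18.5% fell. TLR3, an endosomal receptor for double-stranded RNA, rose by 2.44 ± 0.42 and by 1.53 ± 0.32 (adjusted p = 0.000158 and 0.00108), and the kinase TBK1 by 0.43 ± 0.09 and by 0.56 ± 0.09 (0.000667 and 6.02e-05). The adaptor TICAM1 rose by 0.59 ± 0.09 with KO donors (3.87e-05). Among 39 tested genes on a longer list of other interferon-induced genes, 16 rose and 2 fell with KO donors, and 19 rose and 1 fell with WT donors. SP110, a nuclear body protein, rose by 1.91 ± 0.09 and by 1.73 ± 0.09 (6.18e-12 and 5.55e-11), the peptide transporter TAP1 by 1.42 ± 0.11 and by 1.44 ± 0.11 (7.99e-09 and 6.6e-09), and the ligase TRIM22 by 1.32 ± 0.11 and by 1.31 ± 0.11 (1.83e-08 and 1.58e-08).

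A list of NF-kB feedback genes and targets was read beside the members, and its part in their changes was not tested. Of 18 tested, 17 rose with KO donors and 14 with WT donors, and none fell. Over all symbols 18.8% rose and 18.4% fell with KO donors, and 16.1% rose and 18.5% fell with WT donors. CXCL8, the neutrophil chemokine, rose by 5.88 ± 0.17 and by 3.05 ± 0.23 (adjusted p = 3.86e-14 and 7.08e-09), and the adaptor TRAF1 by 3.94 ± 0.15 and by 3.72 ± 0.17 (5.04e-13 and 1.19e-11). Between KO and WT etoposide media 11 of these 18 were higher and none lower, beside 8.5% and 5.57% of all symbols. CXCL8 stood there at 2.81 ± 0.12 (6.2e-11), whereas the 3 members that passed there were lower. Against T0, 17 of 18 fell in each DMSO medium, as IRF1 did. Of all symbols 18.7% fell in KO DMSO medium and 17.6% in WT DMSO medium. Blood cell markers summed to 20.4 to 25.8 CPM in KO etoposide medium and 17.7 to 18.1 CPM in WT etoposide medium, against 13.7 to 14.9 CPM in KO DMSO medium, 12.7 to 13.2 CPM in WT DMSO medium and 15.9 to 17 CPM at T0. Most of that sum was CD68 (2613 counts over the 10 libraries), followed by CSF1R (247), ITGAM (237), PTPRC (127), CD14 (21) and MS4A1 (16), while CD3E, LYZ and CLEC4C had 1 each. The part of these markers in the results was not tested.

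In the screen, guides against a gene that cells need, or need under etoposide, become rarer, and guides against a gene that holds cells back become more common. Guide counts were summed per gene, so a change describes the cells that carry those guides. Of 35 members 1 passed in KO cells under etoposide against DMSO and none in WT cells, beside 4.23% and 2.18% of all 19050 genes, and 4 and 1 members had an unadjusted p under 0.05. DESeq2 called 2 and 0. ISG15 was the member that passed. It had 64.1, 63.5 and 65.7 CPM in KO etoposide cells, against 76.9, 72.7 and 68.8 CPM in KO DMSO cells, so that every etoposide library was below every DMSO library. In WT cells it had 64.1, 68.1 and 62.8 CPM under etoposide, against 69.1, 70.9 and 64.3 CPM in DMSO, and these overlapped. ISG15 guides fell by 0.17 ± 0.05 on the log2 scale in KO cells (adjusted p = 0.0164) and stood at −0.07 ± 0.05 in WT cells (0.602). The difference between the 2 effects was −0.11 ± 0.07 (0.595).

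**Figure D4:**
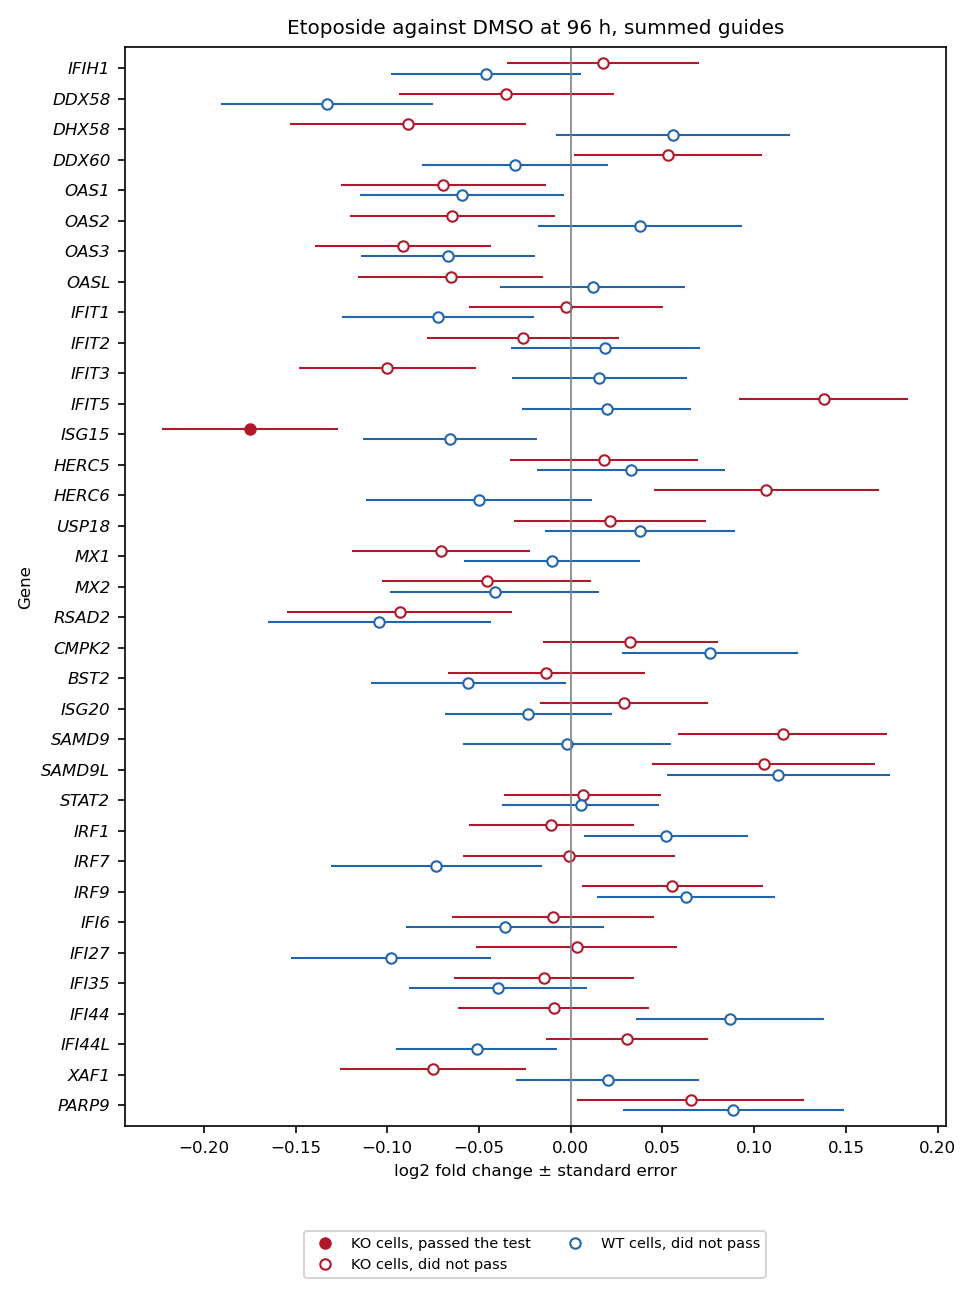
Log2 fold change of summed guide counts in etoposide over DMSO at 96 h, with its standard error, for the 35 members, in red for KO cells and in blue for WT cells; the filled point passed the test. All values lie between −0.17 and 0.14 and ISG15 in KO cells is the filled point.

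Of the 6 ISG15 guides 5 had negative values in KO cells and 1 passed. Guide HGLibB_23623 had 8.93, 7.91 and 8 CPM in KO etoposide cells, against 13.2, 13.2 and 10.5 CPM in KO DMSO cells. It fell by 0.57 ± 0.13 (adjusted p = 0.00701 over all 109367 guides, of which 0.841% passed). The other 5 guides lay between −0.26 and 0.15, and none passed. Without this guide the ISG15 sum stood at −0.11 with an adjusted p of 0.259, a setting chosen after the data were seen. The call was also lost without KO DMSO library A (0.145), KO etoposide library A (0.065) or KO etoposide library B (0.08). The same guide was already more common in the KO than in the WT starting pools, with 9.33, 10.5 and 10.3 CPM in KO T0 cells, against 6.88, 5.55 and 7.47 CPM in WT T0 cells (0.60 ± 0.13, adjusted p = 0.00572).

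IFIT5 came next in KO cells, with 78.7, 75.8 and 70.7 CPM under etoposide, against 68.6, 70.2 and 66 CPM in DMSO. Its libraries did not overlap, and 0.14 ± 0.05 missed the threshold (adjusted p = 0.0695). IFIT5 passed in 3 of 15 alternatives. These were DESeq2 (0.0412), scaling to the 999 non-targeting guides (0.0257) and the fit without KO etoposide library C (0.0265). The 15 included sums without its guide HGLibB_22603. Over all 15 the IFIT5 value ran from 0.06 to 0.18, with adjusted p up to 0.615. Its guide HGLibB_22603 rose by 0.36 ± 0.09 (0.0272), with 20.4, 21.6 and 19.5 CPM in KO etoposide cells, against 17.3, 16.6 and 14.1 CPM in KO DMSO cells. The other 4 IFIT5 guides lay between −0.01 and 0.17. IFIT3 stood at −0.10 ± 0.05 (0.266) and SAMD9 at 0.12 ± 0.06 (0.279) in KO cells. In WT cells DDX58 had the smallest p under etoposide, at −0.13 ± 0.06 (0.28), followed by SAMD9L (0.11 ± 0.06, 0.424) and IFI27 (−0.10 ± 0.05, 0.449).

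**Figure D5:**
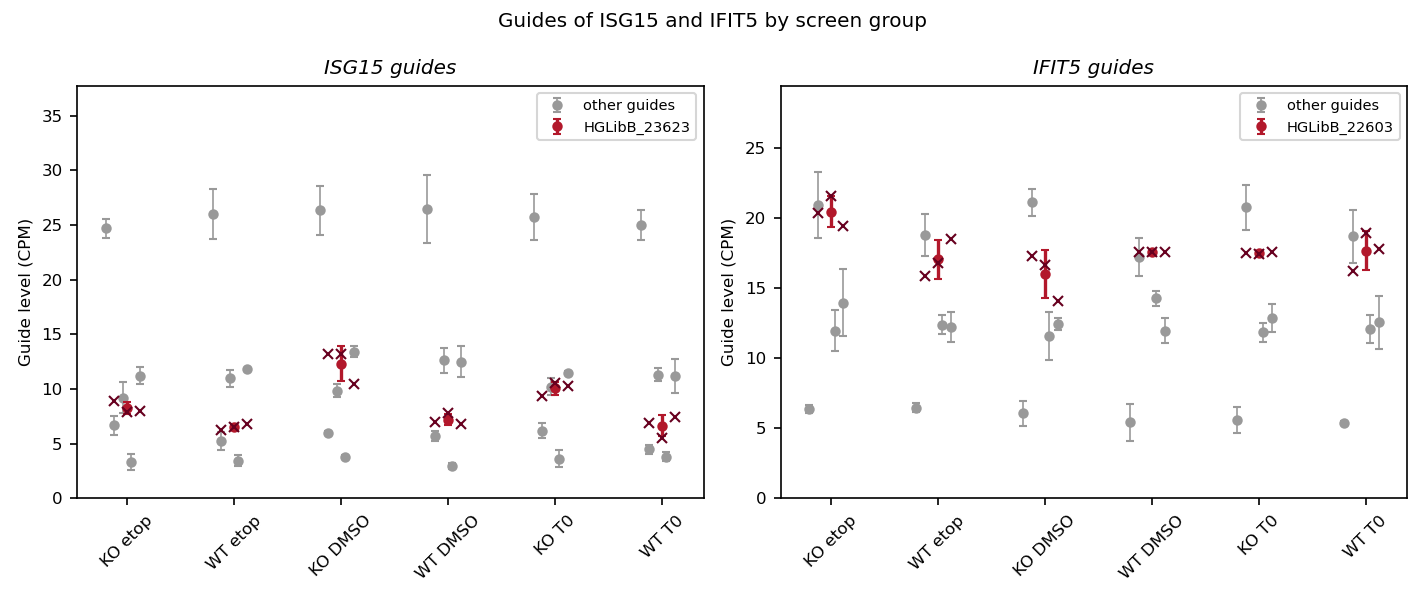
Level in CPM of each guide of ISG15 and IFIT5 in the 6 screen groups (mean and SD of 3 libraries), with the guide that passed in red and its libraries as crosses. HGLibB_23623 of ISG15 is highest in KO DMSO cells, at 10.5 to 13.2 CPM, and HGLibB_22603 of IFIT5 is highest in KO etoposide cells, at 19.5 to 21.6 CPM.

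None of the other screen comparisons gave a member past the threshold with edgeR, and DESeq2 gave 1, DDX58 for growth of WT cells. For 96 h of growth in DMSO against T0, 3.42% of all genes passed in KO cells and 6.55% in WT cells, and 2 and 4 members had an unadjusted p under 0.05. IFIT3 (0.12 ± 0.05, adjusted p = 0.15) and IFIT2 (0.12 ± 0.05, 0.226) led in KO cells. DDX58 (0.17 ± 0.06, 0.0622), RSAD2 (0.16 ± 0.06, 0.0992) and STAT2 (−0.09 ± 0.04, 0.2) led in WT cells. Single alternatives brought a call for each of these 3, DDX58 with DESeq2 (0.023), RSAD2 with limma on the mean over guides (0.027) and STAT2 with scaling to non-targeting guides (0.00413), each under a different setting. For the difference of the etoposide effects, 0.0525% of all genes passed, and no member had an unadjusted p under 0.05. The smallest p belonged to IFIT5, at 0.12 ± 0.07 (adjusted p = 0.541).

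Between the KO and WT starting pools, 4.54% of all genes passed and no member did, while 3 had an unadjusted p under 0.05. These were ISG15 (0.11 ± 0.05, adjusted p = 0.18), USP18 (0.12 ± 0.05, 0.18) and MX2 (0.12 ± 0.06, 0.227). With scaling to non-targeting guides all 3 passed (0.0229, 0.0277 and 0.0448), and each passed in only this 1 of 15 alternatives. The 15 included sums without the ISG15 guide HGLibB_23623. Over them ISG15 ran from 0.03 to 0.15 (adjusted p up to 0.75), USP18 from 0.11 to 0.18 (up to 0.336) and MX2 from 0.09 to 0.17 (up to 0.541). Among single guides, 7 of 203 differed between the starting pools, where 2.67% of all guides did. Those more common in KO pools were HGLibB_23623 of ISG15, HGLibB_33163 of OASL (0.46 ± 0.13, adjusted p = 0.0319) and HGLibB_42245 of RSAD2 (0.64 ± 0.18, 0.039). Those less common were HGLibA_22618 of IFI6 (−0.50 ± 0.11, 0.011), HGLibA_22631 of IFIT3 (−0.53 ± 0.13, 0.0138), HGLibB_22583 of IFI44L (−0.88 ± 0.22, 0.0211) and HGLibB_22565 of IFI27 (−0.43 ± 0.12, 0.0343). Each belonged to a different gene, and no member had more than 1 such guide.

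Under etoposide 2 of 203 member guides passed in KO cells, those of ISG15 and IFIT5 above, and none in WT cells, beside 0.841% and 0.372% of all guides, and 20 and 19 member guides had an unadjusted p under 0.05. For growth in DMSO none passed in KO cells and none in WT cells (0.609% and 1.54% of all guides, with 14 and 26 member guides at an unadjusted p under 0.05), and none passed for the difference of the etoposide effects (0.00274%, 15 member guides). The mean count of a member guide over the 18 libraries ran from 86 to 1111, with a median of 332.6. OAS3 and IRF1, which rose in both etoposide media, had guide changes under etoposide of −0.09 ± 0.05 and −0.01 ± 0.04 in KO cells and −0.07 ± 0.05 and 0.05 ± 0.04 in WT cells, and IFIT1, which fell, had −0.0024 ± 0.05 in KO cells and −0.07 ± 0.05 in WT cells. None of these passed. RSAD2, HERC5 and XAF1, with 3 counts of RNA or fewer, were targeted and counted in the screen like the other members.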

How the data were processed

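The 10 RNA libraries and 18 screen libraries were deposited as raw counts per gene symbol and per guide, per the file headers. Per the submitters' processing notes, screen reads went through Bowtie2 and DESeq2 and RNA used build hg19 and DESeq2. The RNA aligner, versions, annotation and strand setting were not given in the sources. The authors' deposited comparison of KO and WT media holds log2 fold changes, p-values, the Wald statistic as a score and the mean normalized count as a signal, per its header; its fold changes matched the etoposide media here.

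Counts were analysed with edgeR 4.0.16 in R 4.3.3 (TMM scaling, filterByExpr, quasi-likelihood test, Benjamini-Hochberg adjustment over all features, threshold 0.05). One fit covered the 5 RNA groups (5 residual degrees of freedom) and another the 6 screen groups (12), where guide counts were summed per gene; guides were also fitted singly. CPM used TMM-adjusted library sizes. limma 3.58.1 and DESeq2 1.42.0 gave alternatives, and the procedure was tested on simulated data. In the deposited RNA counts, 51 gene symbols were written like currency amounts, as a spreadsheet does with ARL family names, and no member was among them. Depth was 16.8 to 20.3 M counts in RNA and 30.4 to 48.2 M in the screen, so members of a few counts carry wide counting error. The members and lists were chosen with earlier results of these data known. Per-library values are given for members averaging at least 1 CPM and called in any comparison and for the 4 smallest p-values of a comparison; in the screen the 3 smallest p-values are named. Guide sequences were not used here. Promoter sequences came from RefSeq (GRCh38.p14). Library letters were not taken as pairs. Some genes are not reported here.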

Additional observations from a re-analysis of the deposited data

How the results depend on the processing

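Of 52 calls of members, 23 held under every alternative run and 29 were lost under at least 1. Over 880 alternative values, 772 kept direction and side of the threshold, 89 fell short, 19 newly passed and 0 changed sign. Counts of members called moved by over 1.5 times as follows. KO DMSO medium against T0 gave 5 with DESeq2 and 5 with only the libraries compared (9 in the full fit). KO against WT DMSO medium gave 3 without a filter on low counts (0). WT DMSO medium against T0 gave 12 without a filter and 13 with only the libraries compared (7), and etoposide against DMSO with KO donors gave 5 with only the libraries compared (8). In the screen, etoposide in KO cells gave 2 with scaling to non-targeting guides, 2 with DESeq2 and 0 without guide HGLibB_23623, a setting chosen after seeing the data (1 in the full fit). Growth of WT cells gave 1 with non-targeting scaling, 1 with DESeq2 and 1 with limma on the mean over guides (0), and the starting pools gave 3 with non-targeting scaling (0). The cause was not tested. Leaving out 1 library gave 5 to 9 for KO DMSO medium against T0, 0 to 4 for KO against WT DMSO medium, 0 to 2 for KO against WT etoposide medium, 6 to 8 for KO and 4 to 7 for WT etoposide medium against T0, 0 to 2 for the difference of RNA effects and 5 to 9 for etoposide with KO donors. It gave 0 to 1 for growth of WT cells and 0 to 2 for etoposide in KO cells. With the replicate letter as a block, members called numbered 7 for etoposide with WT donors and 9 with KO donors, and over all features 388 for KO against WT DMSO medium (240 without it) and 18 for the difference of screen effects (10). To look for pairing, the group mean of each gene was subtracted, and what was left was correlated between libraries of different groups. These remainders correlated at −0.0892 to 0.182 for same-letter libraries in RNA and −0.0466 to 0.172 in the screen. For different-letter screen libraries they correlated at −0.121 to 0.103. In the screen 4 of 45 same-letter and 1 of 90 different-letter pairs were over 0.1. With 2 RNA libraries a group, different-letter values mirror same-letter values, so pairing in RNA could not be judged this way. The letters were not taken as pairs in the full fit. With 2 RNA libraries a group, members under 1 CPM were limited by depth.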
